A study of Mus musculus with 2 samples.

Results

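The genes that decide whether pyruvate leaves a cell as lactate or enters the mitochondria were described in cultured primary mouse brain pericytes (PCs) at passage 5 (PC5) and passage 20 (PC20). The set holds 10 of the 31053 genes listed in each library, chosen by symbol and function, namely *Slc2a1*, *Pkm*, *Ldha*, *Ldhb*, *Slc16a1*, *Slc16a3*, *Pdk1*, *Pdha1*, *Mpc1* and *Mpc2*. Each passage was sequenced as 1 library of single cells. The cells came from the brains of female wild type C57BL/6N mice of 6 to 8 weeks, with 6 mice pooled per isolation, and grew on collagen in endothelial cell growth medium for the first passages and in Pericyte Medium afterwards. No treatment other than passaging is given for either culture. The study's methods describe a different isolation for each culture, although the deposited description speaks of 1, so passage and isolation cannot be told apart. No test between the passages was possible with 1 library each, and all intervals are at the 95% level and cover counting error only.

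Pyruvate is the product of glycolysis. Lactate dehydrogenase reduces it to lactate and restores the NAD+ that glycolysis consumes, and proton-coupled monocarboxylate transporters carry lactate across the plasma membrane. Alternatively, the mitochondrial pyruvate carrier, a heterodimer of MPC1 and MPC2, takes pyruvate across the inner mitochondrial membrane, where the pyruvate dehydrogenase (PDH) complex converts it to acetyl-CoA for the TCA cycle. PDH kinases phosphorylate the E1 alpha subunit and switch the complex off. Several of these genes are textbook targets of the hypoxia-inducible factor HIF-1, which binds DNA at the core letters ACGTG or GCGTG.

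Promoters were printed for 5 members, because they show how the letters of the HIF-1 core lie in the genes on either branch. The sequences are those of RefSeq on GRCm38.p6, each 250 bases before a start or, for *Slc2a1*, the first 246 of them, 5′ to 3′ on the strand of the gene. Capitals mark every match to ACGTG or GCGTG on either strand, where a match on the other strand reads CACGT or CACGC. The palindrome CACGTG holds ACGTG on both strands and counts as 2 matches.
*Slc2a1*: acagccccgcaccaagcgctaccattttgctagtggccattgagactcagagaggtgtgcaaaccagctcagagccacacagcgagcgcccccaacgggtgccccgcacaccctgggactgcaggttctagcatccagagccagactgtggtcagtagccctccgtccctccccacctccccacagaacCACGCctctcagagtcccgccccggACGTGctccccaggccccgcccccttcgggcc
*Ldha*: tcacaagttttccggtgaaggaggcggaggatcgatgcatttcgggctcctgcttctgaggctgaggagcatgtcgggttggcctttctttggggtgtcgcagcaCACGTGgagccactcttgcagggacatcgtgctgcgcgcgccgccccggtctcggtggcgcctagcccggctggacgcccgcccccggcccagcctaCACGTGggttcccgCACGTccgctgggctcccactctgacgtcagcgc
*Slc16a3*: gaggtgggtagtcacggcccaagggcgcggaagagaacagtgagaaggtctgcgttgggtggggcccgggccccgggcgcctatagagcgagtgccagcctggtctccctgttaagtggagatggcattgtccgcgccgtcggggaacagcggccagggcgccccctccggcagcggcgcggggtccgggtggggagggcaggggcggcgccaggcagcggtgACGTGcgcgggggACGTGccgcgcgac
*Pdk1*: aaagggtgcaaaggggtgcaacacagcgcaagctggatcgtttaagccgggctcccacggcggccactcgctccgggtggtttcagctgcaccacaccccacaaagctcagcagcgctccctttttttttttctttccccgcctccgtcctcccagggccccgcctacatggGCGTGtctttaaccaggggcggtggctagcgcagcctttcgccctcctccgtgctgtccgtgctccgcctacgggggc
*Mpc1*: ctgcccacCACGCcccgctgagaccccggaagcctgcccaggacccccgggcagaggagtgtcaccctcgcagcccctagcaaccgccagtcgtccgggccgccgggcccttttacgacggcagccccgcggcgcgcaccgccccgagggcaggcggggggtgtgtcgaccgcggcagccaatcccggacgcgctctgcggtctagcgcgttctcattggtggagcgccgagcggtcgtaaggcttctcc
These lie at chr4:119108495-119108740, chr7:46845554-46845803, chr11:120948817-120949066, chr2:71872974-71873223 and chr17:8283537-8283786, all on the plus strand. *Ldha*, *Pdk1* and *Mpc1* each have a further start in the table, which held 1, 0 and 0 matches. The *Ldha* promoter shown held 5 matches, with CACGTG at 2 places. *Slc2a1* and *Slc16a3* held 2 matches each within their last 61 and 27 bases before the start, and *Pdk1* held 1 match at 78 bases before it. The single match of *Mpc1* lay 242 bases before the start. *Pdha1*, also on the mitochondrial branch, held 3 matches, at 197, 172 and 23 bases before its start. *Slc16a1* held 4 matches, the nearest at 134 bases, and *Ldhb* and *Mpc2* held 1 each at 126 and 242 bases, while *Pkm* held 1 at its second start and 0 at the first. Of the 14 promoters of the members, 11 (78.6%) held at least 1 match, against 38.6% of 32851 promoters of the same length, with 1 chromosome left out. The members include textbook targets of HIF-1 and base composition was not matched, so these shares are no test of enrichment. A match shows only that the letters are present, and binding was not measured.

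The libraries held 9950 PC5 cells and 4749 PC20 cells that passed the limits of over 1000 detected genes and below 20% of unique molecular identifiers (UMIs, each of which tags 1 captured RNA molecule) from mitochondrial genes. They held 223054273 and 191122251 UMIs, with medians of 21700 and 33424 UMIs per cell, so PC20 cells were sampled more deeply. Only 20 cell barcodes occurred in both libraries. Levels are given as CPM, the UMIs of a gene in all kept cells divided by the library's UMIs and multiplied by 1000000. The log2 ratio sets PC5 over PC20, so a negative value means a higher level in PC20. Of the defining PC markers, *Pdgfrb* had 44.6 CPM in PC5 against 5.43 in PC20, *Cspg4* 5.55 against 0.0994 CPM, and *Anpep* 1.93 against 3.00 CPM. *Rgs5* had 405 and 0 UMIs, *Kcnj8* 13 and 0, and *Abcc9* 1 in each, so few PC marker transcripts were found, above all in PC20. The label of PC is the study's. Its methods describe selective isolation and culture and a check of identity by PDGFRβ expression. It shows cultured PCs stained for PDGFRβ, but at a passage that is neither that of PC5 nor that of PC20. The summed 6 PC markers came to 53.9 and 8.53 CPM, 3 smooth muscle markers to 283 and 49.5 CPM, and 4 fibroblast markers to 1302 and 101 CPM. Nearly all of the last 2 sums in PC20 came from *Acta2*, with 62.8 and 49.2 CPM, and *Col3a1*, with 1158 and 101 CPM. *Tagln* had 48958 and 44 UMIs, *Pdgfra* 19758 and 25, *Dcn* 11434 and 32, and *Lum* 796 and 0. By contrast, 4 astrocyte markers summed to 151 CPM in PC5 and to a higher 229 CPM in PC20. Nearly all of this came from *Slc4a4*, with 31998 and 43672 UMIs, while *Aldh1l1* had 1640 and 5 UMIs and *Gfap* 97 and 0. The 4 endothelial markers summed to 169 and 0.194 CPM, of which *Cdh5* gave 37453 and 5 UMIs, while *Pecam1* had 121 and 21 UMIs. The part of these marker differences in the values below was not tested. In bulk sums of a library, fewer cells with a transcript and fewer transcripts per cell cannot be told apart, and the values per cell are therefore given too.

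Of the 10 members, 7 had a higher level in PC20, and 5 of these passed 2-fold, namely *Slc2a1*, *Pkm*, *Pdk1*, *Mpc1* and *Slc16a1*. For comparison, 19.1% of the 10504 genes detected in 10% or more of the PC5 or of the PC20 cells (the tested genes) were more than 2-fold higher in PC20, and 17.9% were more than 2-fold higher in PC5. None of the 3 members that were higher in PC5 passed 2-fold, and these (*Slc16a3*, *Ldhb* and *Mpc2*) each fell on the PC20 side under 1 alternative choice of cells. The median log2 ratio was -0.87 over the members and -0.03 over all those genes. Of the 5 genes past 2-fold, *Slc2a1* and *Pkm* act before the branch point. The lactate transporter gene *Slc16a1* and the mitochondrial carrier gene *Mpc1* lie on opposite sides of it, and *Pdk1* encodes a kinase that switches PDH off.

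**Figure D1:**
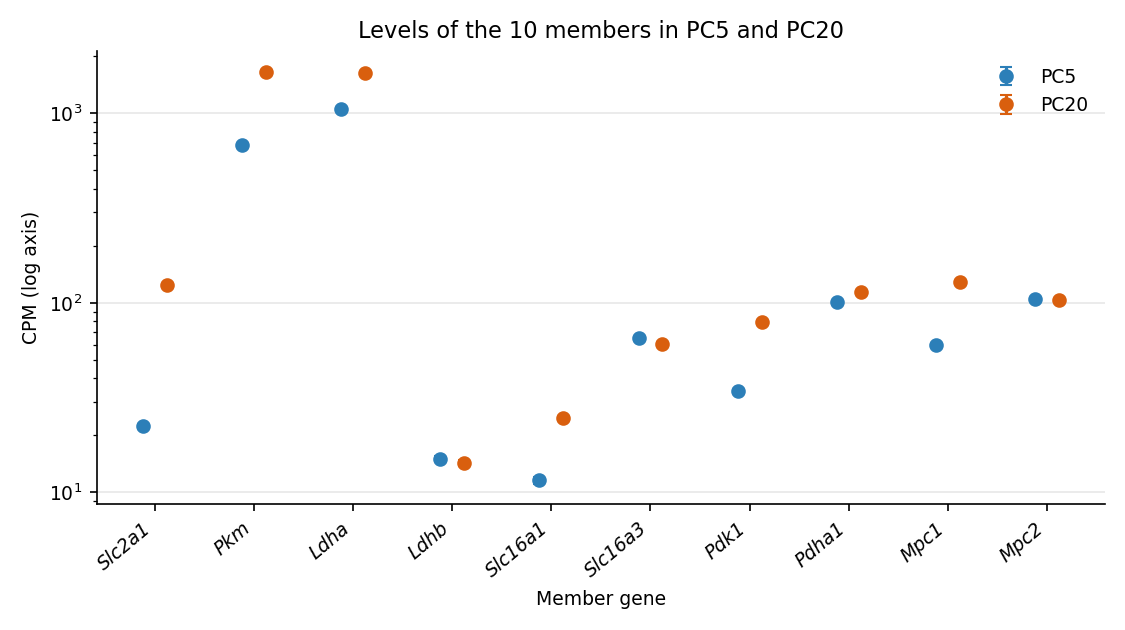
The level of each member in CPM on a log axis, PC5 in blue and PC20 in orange, with 95% Poisson intervals that are smaller than the points. *Slc2a1* shows the widest gap, from 22.3 to 125 CPM, and *Ldhb*, *Slc16a3* and *Mpc2* the narrowest, each slightly higher in PC5, an order that turned for *Ldhb* and *Mpc2* in cells without an *Mki67* or *Top2a* UMI and for *Slc16a3* in cells of matched depth.

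*Slc2a1* (chromosome 4, 119108711 to 119137983, plus strand) encodes GLUT1, the glucose transporter of the blood-brain barrier and of many proliferating cells. From 4979 UMIs in PC5 and 23817 in PC20, its CPM were 22.3 (21.7 to 23.0) and 125 (123 to 126). This was a 5.58-fold higher level in PC20, a log2 ratio of -2.48 (-2.53 to -2.44), and only 4.27% of the tested genes had a lower ratio. With every cell thinned at random to the same number of UMIs, 21.4% of PC5 cells and 67.4% of PC20 cells had a UMI of *Slc2a1*. Unthinned, the shares were 36.5% and 89.4%. As background for these shares, 8 marker genes of microglia, oligodendrocytes and neurons (*Cd48*, *Adgre1*, *Ptprc*, *Mobp*, *Mag*, *Rbfox3*, *Syt1* and *Snap25*) had a UMI in at most 0.0904% of thinned PC5 cells and 0.0224% of thinned PC20 cells.

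*Pkm* (chromosome 9, 59656368 to 59679375, plus strand) encodes pyruvate kinase, which forms pyruvate in the last step of glycolysis. PC5 held 683 CPM of it (680 to 687) and PC20 held 1661 CPM (1656 to 1667), which is 2.43-fold more. Thinned PC5 cells had a median of 7 UMIs of *Pkm* with the middle 90% between 2 and 13, and thinned PC20 cells had a median of 18 with the middle 90% between 8 and 30. The cells of the libraries overlapped, but in 93.1% of all pairs of a PC5 and a PC20 cell the PC20 cell held more, with ties counted as shared. The splice forms PKM1 and PKM2 share the sequence counted and were not separated. Near-identical copies of the 3′ end exist at 5 pseudogenes, none of which is listed as a gene in the files.

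Lactate dehydrogenase is a tetramer of the A subunit from *Ldha*, which favours lactate formation, and the B subunit from *Ldhb*, which favours lactate use. *Ldha* (chromosome 7, 46841475 to 46855627, plus strand) was counted at 1057 CPM (1052 to 1061) in PC5 against 1642 CPM (1636 to 1648) for PC20. Its log2 ratio of -0.64 (-0.64 to -0.63) stayed within 2-fold. The median was 11 UMIs per thinned cell in PC5 and 17 in PC20, and the PC20 cell held more in 79.0% of cell pairs. *Ldhb* (chromosome 6, 142490249 to 142507957, minus strand) had 15.1 CPM in PC5 against 14.3 CPM in PC20. Its log2 ratio was 0.08 (0.00 to 0.15) and turned to -0.11 in cells without an *Mki67* or *Top2a* UMI, and 13.9% and 13.4% of thinned cells had a UMI. *Ldha* therefore made up 98.6% (98.5 to 98.6) of the *Ldha* and *Ldhb* UMIs in PC5 and 99.1% (99.1 to 99.2) in PC20. The ratio of *Ldha* to *Ldhb* UMIs went from 70.1 in PC5 to 115 in PC20, a log2 shift of -0.71 (-0.78 to -0.64). Since 3′ counting gives 1 UMI per molecule, such shares need no correction for length, but capture may differ between transcripts, and the shift between the libraries is less exposed to that than the share itself. Copies of the 3′ end lie at 6 uncounted pseudogenes for *Ldha* and at 1 for *Ldhb*.

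The monocarboxylate transporters moved unequally. *Slc16a1* (chromosome 3, 104638668 to 104658462, plus strand) encodes MCT1, which carries lactate in either direction. PC20 held 24.7 CPM of this gene against 11.5 in PC5, which gave a log2 ratio of -1.10 (-1.17 to -1.03), and 11.0% of thinned PC5 cells against 23.8% of thinned PC20 cells had a UMI. *Slc16a3* (chromosome 11, 120948480 to 120960868, plus strand) encodes MCT4, the low-affinity exporter of highly glycolytic cells. Its levels were close, 64.9 CPM (63.9 to 66.0) for PC5 and 60.8 CPM (59.7 to 61.9) for PC20, with a log2 ratio of 0.09 (0.06 to 0.13) that was -0.023 in cells of matched depth. *Slc16a3* therefore made up 84.9% (84.4 to 85.4) of the UMIs of the pair in PC5 and 71.1% (70.4 to 71.8) in PC20, a log2 shift of 1.19 (1.11 to 1.27).

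At the entry to the mitochondria the members again moved unequally. *Mpc1* (chromosome 17, 8282904 to 8297661, plus strand) was 2.16-fold higher in PC20, with 129 CPM (128 to 131) there and 60.0 CPM (59.0 to 61.0) in PC5. Its partner *Mpc2* (chromosome 1, 165460637 to 165481214, plus strand) had 105 CPM (103 to 106) in PC5 against 104 CPM (102 to 105) in PC20. The log2 ratio of *Mpc2* was 0.01 (-0.01 to 0.04), which was -0.071 in cells without an *Mki67* or *Top2a* UMI. The UMIs of *Mpc1* per UMI of *Mpc2* were 0.573 in PC5 and 1.25 in PC20, a log2 shift of -1.12 (-1.16 to -1.08). A UMI of *Mpc1* was present in 44.7% of thinned PC5 cells but in 71.8% of thinned PC20 cells, while the shares for *Mpc2* were 63.8% and 64.9%. Near-identical copies of the 3′ end of *Mpc1* lie at 3 other genes, 2 of them pseudogenes, and none of these was counted.

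*Pdk1* (chromosome 2, 71873224 to 71903858, plus strand) encodes a kinase that inactivates PDH. PC20 had 78.8 CPM of it (77.5 to 80.1) and PC5 34.2 CPM (33.4 to 35.0). The log2 ratio was -1.20 (-1.24 to -1.16), and its share of thinned cells was 29.3% in PC5 and 55.0% in PC20. *Pdha1* (chromosome X, 160122209 to 160138413, minus strand), the E1 alpha subunit on which that kinase acts, had 101 CPM (99.8 to 102) in PC5 against 113 CPM (112 to 115) in PC20 and a log2 ratio of -0.17 (-0.19 to -0.14). The UMIs of *Pdk1* per UMI of *Pdha1* were 0.338 in PC5 and 0.695 in PC20, a log2 shift of -1.04 (-1.09 to -0.99). Of the PDH kinase genes, this shift covers *Pdk1* alone. The kinase gene *Pdk3* stood above *Pdk1* in PC5, at 38.4 CPM, and below it in PC20, at 23.1 CPM. *Ldha* had 10.4 UMIs per UMI of *Pdha1* in PC5 and 14.5 in PC20, a log2 shift of -0.47 (-0.50 to -0.44). The transcripts say nothing of the phosphorylation of PDH. The gene *Map3k15* overlaps *Pdha1* on the other strand, with 102 UMIs in PC5 and 72 in PC20. Its transcripts hold a near-identical match to the 3′ end of *Pdha1*. The search took both strands, so this match need not be a copy apart from the overlap, which was not tested.

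**Figure D2:**
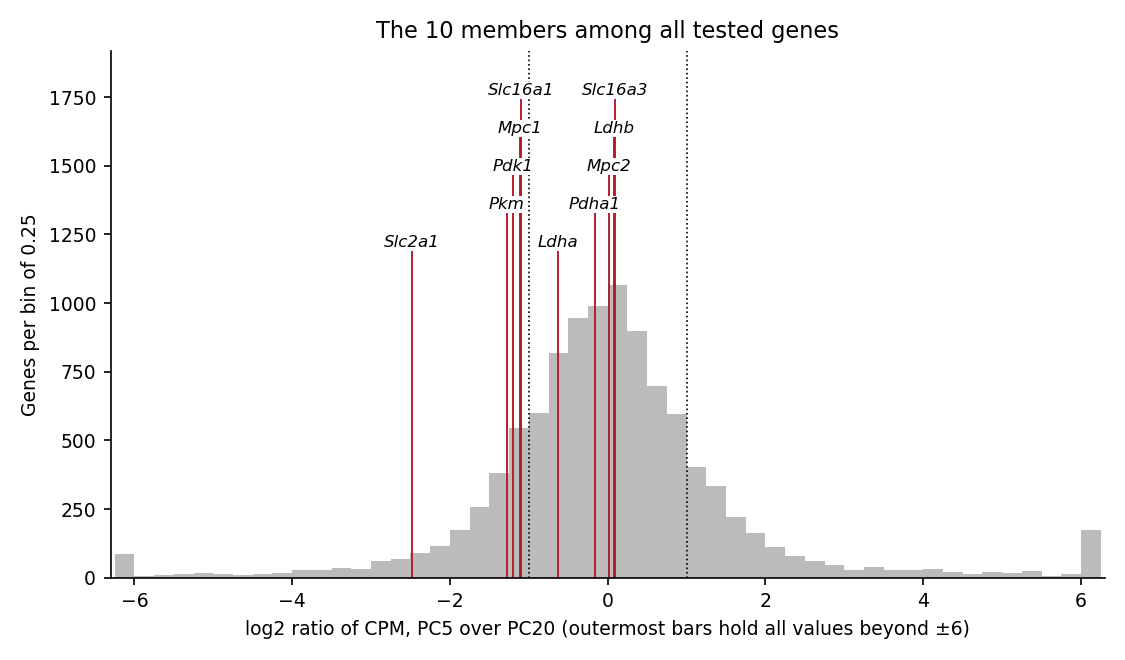
Histogram of the log2 ratio of CPM, PC5 over PC20, for the 10504 tested genes in bins of 0.25, with the members as red lines and 2-fold as dotted lines. *Slc2a1* lies in the left tail, *Pkm*, *Pdk1*, *Mpc1* and *Slc16a1* lie just past the 2-fold line on the PC20 side, and *Pdha1*, *Mpc2*, *Ldhb* and *Slc16a3* lie near 0, with *Ldhb*, *Mpc2* and *Slc16a3* on the PC5 side here and on the PC20 side under 1 alternative each.

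Single cells varied more widely than counting error alone gives for the abundant members. The coefficient of variation of *Pkm* across thinned cells was 47.5% in PC5 and 37.4% in PC20, where Poisson counting at the same mean gives 37.5% and 23.6%. For *Ldha* it was 43.7% and 37.8%, against 30.1% and 23.8%. *Slc2a1* had a variance of 1.07 times its mean in PC5 and 1.67 times in PC20. For the other 7 members the variance lay between 1.05 and 1.22 times the mean in both libraries, so at this depth little spread beyond counting could be seen. The share of cells with a UMI and the level gave the same order of the libraries for every member except *Ldha*, which 99.9% of thinned PC5 cells and 99.8% of thinned PC20 cells held, and *Mpc2*, whose level was 105 and 104 CPM and whose thinned share was 63.8% and 64.9%.

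**Figure D3:**
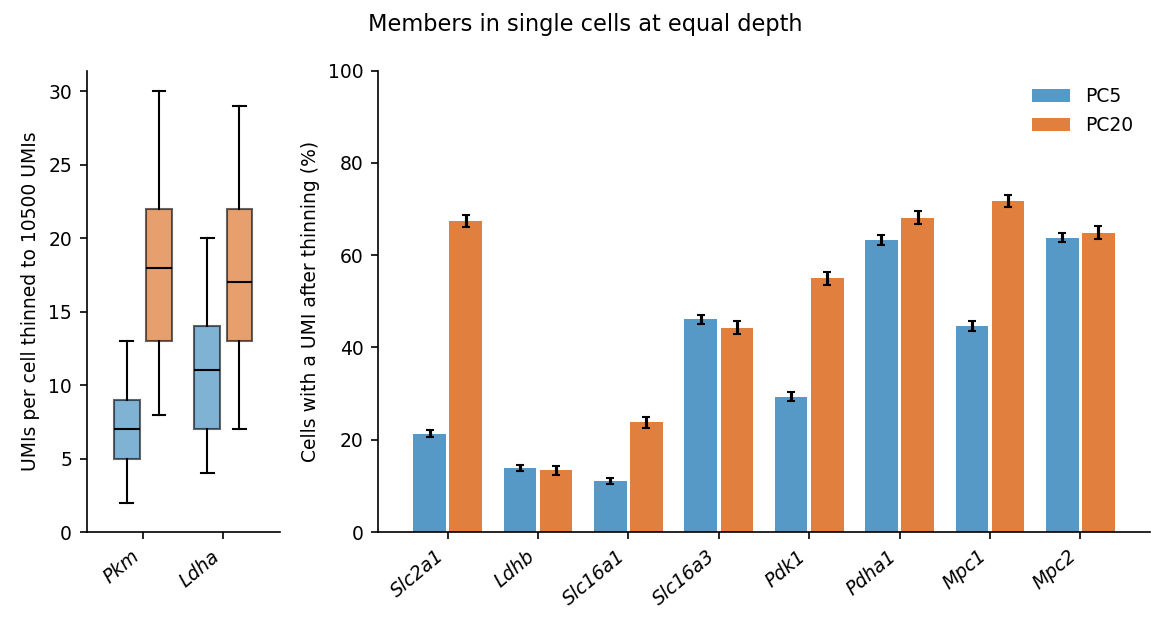
Members in cells thinned to equal depth, PC5 in blue and PC20 in orange. On the left, boxes give the median and middle 50% of *Pkm* and *Ldha* UMIs per cell and whiskers the 5th and 95th percentiles, with *Pkm* at medians of 7 and 18. On the right, bars give the percent of cells with a UMI of the other members with 95% Clopper-Pearson intervals, which run from 21.4% to 67.4% for *Slc2a1* and from 44.7% to 71.8% for *Mpc1*, while the bars of *Ldhb*, *Slc16a3* and *Mpc2* nearly match between the libraries.

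Variation within each library was next set beside a list of 16 other genes that respond to hypoxia, none of them a member. Thinned cells were divided into quintiles by the summed UMIs of that list, separately in each library. In PC20 the level of *Slc2a1* was 65.3 CPM in the lowest quintile and 226 CPM in the highest, a log2 difference of 1.79. *Ldha* went from 1198 to 2037 CPM, *Pkm* from 1245 to 2039 CPM and *Slc16a1* from 19.9 to 30.3 CPM. In PC5 these 4 genes spanned less, with *Slc2a1* from 16.6 to 35.1 CPM, *Ldha* from 949 to 1189 CPM, *Pkm* from 619 to 763 CPM and *Slc16a1* from 10.9 to 12.1 CPM. *Slc16a3* and *Pdk1* increased along the quintiles in both libraries, with log2 differences between the ends of 1.05 and 1.39 in PC5 and of 1.08 and 0.99 in PC20. *Slc16a3* went from 45.7 to 94.6 CPM in PC5 and from 36.6 to 77.6 CPM in PC20, so the highest quintile of PC5 stood above that of PC20, and *Pdk1* went from 22.5 to 59.1 CPM and from 53.0 to 105 CPM.

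The genes of mitochondrial entry followed the list little and in no common direction. *Pdha1* differed between the extreme quintiles by 0.11 on the log2 scale in PC5 and 0.15 in PC20. *Mpc1* differed by 0.03 (-0.09 to 0.15) and -0.23 (-0.35 to -0.11), and *Mpc2* by 0.20 (0.11 to 0.30) and -0.16 (-0.29 to -0.03). *Ldhb* was lower in the highest quintile of PC5, at 12.3 against 18.2 CPM, while in PC20 the intervals of the ends overlapped, at 15.1 and 17.0 CPM. The lowest quintile of PC20 still held more *Slc2a1* and *Pkm* than the highest quintile of PC5, at 65.3 against 35.1 CPM and 1245 against 763 CPM. The same held for *Slc16a1*, at 19.9 against 12.1 CPM, and for *Mpc1*, at 136 against 59.1 CPM. For *Ldha* these ends met, at 1198 and 1189 CPM, and for *Pdk1* they overlapped, at 53.0 and 59.1 CPM. The list itself had a median of 9 UMIs per cell in the lowest and 27 in the highest quintile of PC5, and of 34 and 107 in PC20. In PC5, 485 of 8847 cells had exactly the 11 UMIs at the edge of the lowest quintile. The score of PC5 rests on fewer UMIs, and *Adm* led it there while *Ero1l* led it in PC20. The spans of the libraries are therefore not directly comparable. Cells of the highest quintile had fewer UMIs before thinning, with medians of 20441 against 24172 in the lowest quintile in PC5 and 28489.5 against 36578 in PC20. The quintiles are a range of one score and no cell type.

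**Figure D4:**
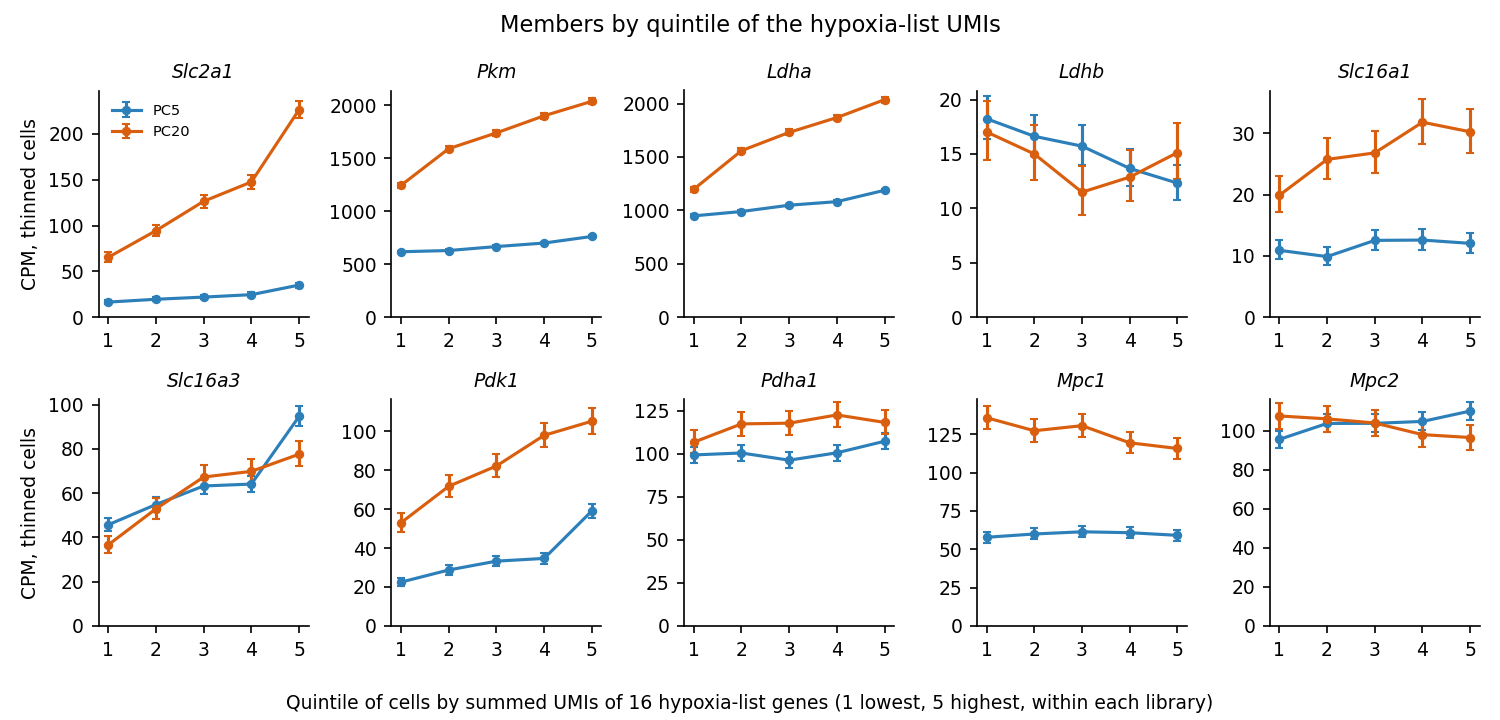
Level of each member in thinned cells (CPM, 95% Poisson intervals) by quintile of the summed UMIs of 16 hypoxia-list genes, from 1 (lowest) to 5 (highest) within each library, PC5 in blue and PC20 in orange. *Slc2a1*, *Pkm* and *Ldha* climb steeply in PC20, up to 226, 2039 and 2037 CPM, and *Slc16a3* and *Pdk1* climb in both libraries. *Pdha1*, *Mpc1* and *Mpc2* change little, and *Mpc1* and *Mpc2* end lower than they start in PC20.

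The members were also compared by proliferation and depth. In PC5, thinned cells with a UMI of *Mki67* or *Top2a*, which mark dividing cells, held more *Ldha* than cells without one, at 1149 against 998 CPM, and more *Slc16a1*, at 13.7 against 10.5 CPM. The corresponding log2 differences were 0.18 for *Slc16a3* and 0.14 for *Mpc1*. In PC20 the difference was -0.02 for *Ldha* and 0.00 for *Pkm*, while *Ldhb* was lower in cells with such a UMI, at 12.7 against 16.5 CPM, and *Mpc2* at 97.9 against 109 CPM. Between the deepest and shallowest quartile of cells by total UMIs, the widest difference was that of *Ldhb* in PC5, at 13.7 CPM in the deepest and 20.6 CPM in the shallowest quartile, or -0.59 on the log2 scale. *Slc2a1* differed by -0.35 in PC5 and by -0.36 in PC20, *Slc16a1* by -0.33 in PC20, and *Ldha* by 0.22 and -0.07.

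The members were weakly related to each other across thinned cells. Of the 45 pairs of members, 1 reached a Pearson's *r* of 0.2 in PC5 and 2 in PC20. The highest was *Pkm* with *Ldha*, at 0.25 over 8847 PC5 cells and 0.49 over 4474 PC20 cells, and *Slc2a1* with *Ldha* reached 0.21 in PC20. The median over pairs was 0.01 in each library. Cells of a library share its preparation and their counts are sparse, so these values describe the libraries and carry no test. The 10 genes most alike to *Ldha* in PC5 were *Hmgb1* (0.38), *Ptma* (0.37), *Hmgn1* (0.34), *Tpi1* (0.34), *H2afz* (0.33), *Set* (0.31), *Actg1* (0.30), *Hnrnpab* (0.28), *Pgk1* (0.28) and *H3f3b* (0.27), among them chromatin genes and 2 genes of glycolysis. In PC20 they were *Ero1l* (0.46), *Gapdh* (0.46), *Eno1* (0.45), *Tpi1* (0.44), *Higd1a* (0.43), *Aldoa* (0.41), *Pgk1* (0.40), *Fam162a* (0.39), *Pgam1* (0.38) and *Bnip3* (0.38), among them 6 genes of glycolysis. *Tpi1* and *Pgk1* were in both lists. *Ero1l*, first in PC20, had an *r* of 0.01 with *Ldha* in PC5, and *Hmgb1*, first in PC5, had 0.08 in PC20. *Pkm* was most like *Pgk1* and *Tpi1* in PC5 (both 0.21) and *Eno1* (0.49), *Anxa2* (0.46) and *Ero1l* (0.44) in PC20. *Slc2a1* in PC20 was most like *Ndrg1* (0.35), *Bnip3* (0.31) and *Ero1l* (0.29), and *Mpc2* in PC5 was most like *S100a6* (0.20). No other member had a gene at 0.2 or more.

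The other genes of the pathway gave the setting. Beside the counts of these lists, 19.1% of all tested genes passed 2-fold towards PC20 and 17.9% towards PC5. Of 15 further glycolysis genes all 15 were higher in PC20, with a median log2 ratio of -1.34, and 10 passed 2-fold. These 10 were *Gpi1*, *Pfkl*, *Pfkp*, *Aldoa*, *Aldoc*, *Tpi1*, *Gapdh*, *Pgk1*, *Eno1* and *Pfkfb3*, with log2 ratios from -3.26 for *Aldoc* to -1.19 for *Tpi1*, and *Gapdh* was the most abundant at 910 and 2907 CPM. *Bsg*, which encodes the chaperone that carries MCT1 and MCT4 to the cell surface, had 1945 CPM in PC20 against 378 in PC5, with a log2 ratio of -2.36. Among the 16 paralogs and partners 5 were tested, and *Bsg* and *Ldhd* passed 2-fold towards PC20. *Ldhd*, a dehydrogenase for D-lactate, had 87 and 612 UMIs. The other chaperone, *Emb*, had a log2 ratio of -0.81, and the kinase *Pdk3* had 0.73, opposite to *Pdk1*. *Pdk2* had 235 UMIs in each library and *Pdk4* 600 and 592. Below the limit for testing, the glucose transporters *Slc2a3*, *Slc2a10*, *Slc2a6* and *Slc2a12* had 998, 838, 713 and 747 UMIs in PC5. They had 79, 20, 191 and 238 in PC20, opposite to *Slc2a1*. The glucose transporter *Slc2a8*, which was tested, went the same way as *Slc2a1*, with 4.86 CPM in PC5 and 6.04 CPM in PC20. *Slc2a4* had 3 and 8 UMIs, *Slc16a7* had 18 and 119, and *Slc16a8* (MCT3) had 0 in both. The direction of the count past 2-fold in this list therefore depends on the limit, which was set without thinning.

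Downstream of pyruvate the genes did not move together. The shares of all tested genes past 2-fold, 19.1% towards PC20 and 17.9% towards PC5, apply here too. Of 8 genes of the PDH complex, its phosphatases and pyruvate carboxylase, 7 were tested, with a median log2 ratio of 0.06. *Pdhb*, the E1 beta subunit, was higher in PC20 at 85.1 against 35.3 CPM, and *Pdp2*, a phosphatase that reactivates PDH, was higher in PC5 at 20.6 against 9.05 CPM. All 16 TCA cycle genes were tested, with a median of 0.07. Of these, *Sdhb*, *Suclg1*, *Idh3b*, *Idh3g* and *Fh1* passed 2-fold towards PC20, with log2 ratios from -1.46 to -1.19, and 0 passed it towards PC5. *Mdh2*, the most abundant of them in PC20, had -0.94. Of 9 tested genes that carry NADH equivalents into mitochondria or link pyruvate to alanine, *Got1*, *Mdh1*, *Slc25a13*, *Gpt* and *Gpt2* passed 2-fold towards PC20. *Got1*, the cytosolic aspartate aminotransferase, led them at 34.7 and 146 CPM.

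Of the 16 hypoxia-list genes, 13 were more than 2-fold higher in PC20, beside 19.1% of all tested genes. Another 1, *Adm*, went more than 2-fold the other way, at a log2 ratio of 1.38, beside 17.9% of all tested genes. *Car9*, which encodes carbonic anhydrase 9 and handles the acid that accompanies lactate, had 148 UMIs in PC5 and 79142 in PC20. *Ero1l*, the most abundant of the list in PC20, had 2639 CPM there and 144 CPM in PC5, where *Adm* led with 334 CPM. *Vegfa* and *Kdm3a* stayed within 2-fold at -0.23 and -0.63. The list had a median log2 ratio of -1.56. Among 7 tested regulators only *Epas1*, encoding HIF-2 alpha, passed 2-fold, with 7.27 CPM in PC5 and 0.759 CPM in PC20. The regulators below the limit for testing also differed, *Mycn* with 351 UMIs in PC5 and 0 in PC20, and *Ppargc1a* with 24 and 268. *Hif1a* had a log2 ratio of 0.11, at 183 and 170 CPM, and *Myc* had -0.43. Oxygen, glucose, lactate and HIF-1 protein were not measured in these libraries.

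**Figure D5:**
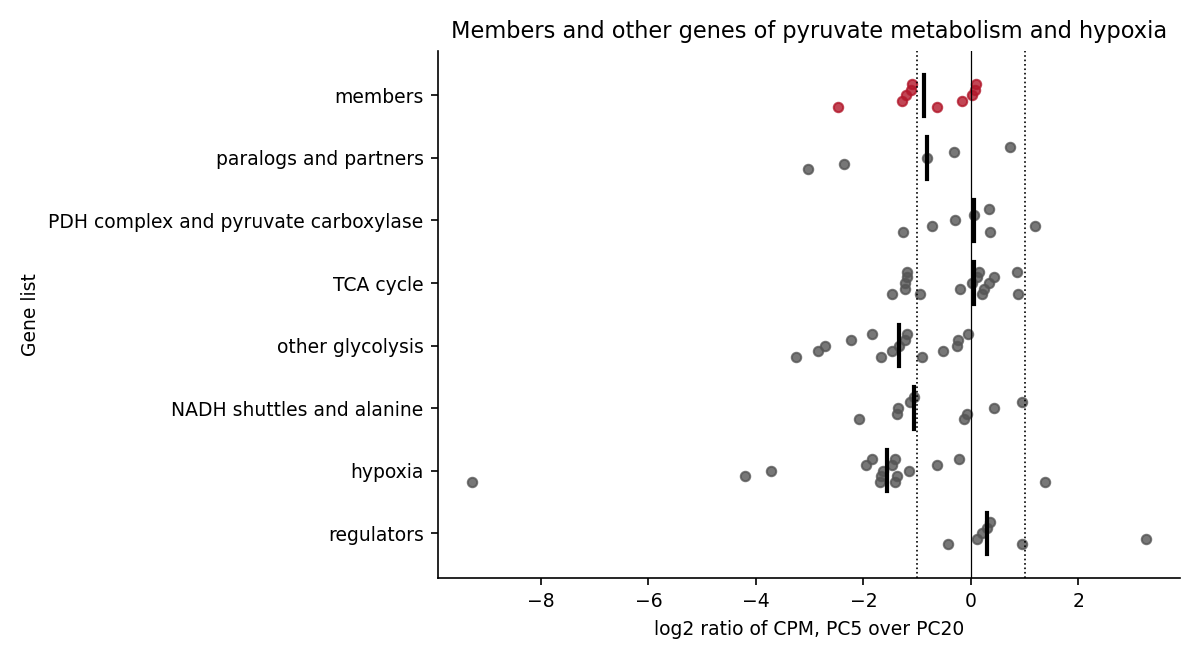
Log2 ratio of CPM, PC5 over PC20, for the members (red) and the tested genes of 7 lists (grey), 1 point per gene, with a black bar at the median of each list and dotted lines at 2-fold. Glycolysis and hypoxia genes lie mostly on the PC20 side with medians of -1.34 and -1.56, PDH and TCA cycle genes spread around 0, and the members span both.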

How the data were processed

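Single-cell libraries of PC5 and PC20 (10x Genomics 3′ v3.1 chemistry) were analysed, grouped by passage as labelled. The authors mapped the reads to mm10 with CellRanger (5.0 by the labels, 5.0.1 by the file headers) and deposited UMI counts per gene and barcode with no normalization. How reads that match several genes were counted is not given in the sources used here. The study's limits on cells were applied (over 1000 detected genes, below 20% of UMIs from mitochondrial genes). Of the listed identifiers, 31011 were found in GENCODE M21 (GRCm38), which gave positions, and promoters were matched by symbol to RefSeq (GRCm38.p6) for all 10 members, with 14 starts. *Aldoa*, listed under 2 identifiers, was summed.

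CPM has an exact Poisson interval, the log2 ratio a conditional binomial one, shares Clopper-Pearson ones, and shifts of a balance a normal approximation on the log odds ratio. Genes with a UMI in at least 10% of kept cells of either library were tested against a 2-fold ratio, with no p-value, since each passage has 1 library. The cells were not thinned for this limit, so a gene could meet it in 1 library alone. For example, *Ldhd*, *Gpt* and *Car9* met it only in the deeper PC20, and *Epas1* only in PC5. A 2-fold call of such a gene follows in part from the limit. Thinning drew 10500 UMIs per cell without replacement and left out shallower cells, which kept 8847 PC5 and 4474 PC20 cells. Doublets were not removed. Named genes are all members, the most alike genes by Pearson's *r* on log-transformed thinned UMIs (10 for *Ldha*, up to 3 for the others at 0.2 or more, without unnamed gene models and pseudogenes), and in each list those past 2-fold and the most abundant. Genes of the lists within 2-fold or untested that the text names were picked after their values were seen. The members and lists were chosen with earlier results of these data known. Copies of 3′ ends were searched with BLAST 2.17.0 in the last 500 bases at 95% identity over at least 90 bases. Both strands were searched, so a gene that overlaps a member on the other strand can appear as a copy. Python 3.11.15, NumPy 2.4.6, SciPy 1.17.1, pandas 2.3.3 and matplotlib 3.10.9 were used, and the computation was tested on simulated data. Alternatives tried were no cell filter and a stricter one, cells with neither an *Mki67* nor a *Top2a* UMI, cells of matched depth (24251 to 28755.8 UMIs, 1492 PC5 and 642 PC20 cells), thinned cells, means over cells, another library size, centring on the median gene, a pseudocount of 1, other gene filters, a 1.5-fold threshold, thinning to 5000 UMIs and Spearman correlation.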

Additional observations from a re-analysis of the deposited data

How the results depend on the processing

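Over 8 choices of cells, weighting and scaling, 7 members kept the sign of their log2 ratio (PC5 over PC20), with *Slc2a1* between -2.69 and -2.45 and *Slc16a1* between -1.39 and -1.06. In cells without an *Mki67* or *Top2a* UMI, *Ldhb* turned to -0.11 and *Mpc2* to -0.071, and in cells of matched depth *Slc16a3* turned to -0.023, and the cause was not tested. The members more than 2-fold higher in PC20 numbered 5 in every alternative except 6 at a 1.5-fold threshold and 1 (*Pkm*) with a pseudocount of 1 on means per 10000 UMIs, which shrinks the ratio of genes of low level. Under that pseudocount 1.37% of tested genes passed 2-fold towards PC20 and 1.40% towards PC5. At 1.5-fold these shares were 30.1% and 27.8%. With no filter on genes, 22.2% passed 2-fold towards PC20 and 32.6% towards PC5. The log2 shift of *Ldha* to *Ldhb* was -0.91 in cells of matched depth and -0.87 as a mean over cells. That of *Slc16a3* to *Slc16a1* was 1.31 in cells without an *Mki67* or *Top2a* UMI, 1.37 in cells of matched depth, 1.30 in thinned cells and 1.28 as a mean over cells. No replicate could be left out. No paired analysis was possible because each passage has 1 library.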

Other observations

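The barcodes left out by the cell filter, 679 in PC5 and 135 in PC20, also held the members. For *Slc2a1* they gave 15.1 CPM (8.28 to 25.4) in PC5 against 136 CPM (87.9 to 200.5) in PC20, where the kept cells had 22.3 and 125 CPM. *Pkm* differed less between these barcodes than between kept cells, at 941 CPM (880 to 1006) and 1103 CPM (956 to 1265), and so did *Ldha*, at 835 CPM (777 to 896) and 923 CPM (790 to 1073).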
